A study of Danio rerio with 18 samples.

Results

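The interleukin 1, TNF and NF-kB genes described here are 10 genes of larval zebrafish: the cytokine genes il1b, tnfa and tnfb, the inhibitor of NF-kB (IkB) genes nfkbiaa, nfkbiab and nfkbiz, and the Rel family genes nfkb1, nfkb2, rela and relb. The members were chosen with earlier results of these data known. They were matched by gene symbol among the 34326 genes of the deposited tables, and all 10 were found. Of these, 9 had enough counts to be tested, and tnfa did not. Sequences of these genes are not printed here.

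RNA was sequenced from at most 1000 eGFP-positive cells per library, sorted from dissociated larval eyes and labelled as RPE, the retinal pigment epithelium, a sheet of pigmented cells that supports the photoreceptors. In the ablated groups (MTZ+), larvae had been kept in 10 mM metronidazole for 24 h, between 5 and 6 days post fertilisation (dpf), to ablate the RPE. The unablated groups (MTZ-) had no metronidazole. Cells of either kind were taken 2, 4 and 7 days post-injury (dpi), with 3 libraries in each of the 6 groups and 18 in all. All larvae, unablated included, had received 1.5X phenylthiourea from 0.25 to 5 dpf, which stops melanin formation. The labels used here name neither the transgene nor the promoter behind eGFP, and they describe no group given the drug without ablation, so effects of the drug and of ablation cannot be told apart. Nothing in the labels says whether the 3 libraries of a group came from separate clutches, so the p-values measure the spread between these libraries.

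Interleukin 1 beta and TNF are secreted or membrane-bound cytokines of injury and infection, made above all by macrophages and other immune cells. Their receptors activate IkB kinases, which mark IkB proteins for destruction and so free Rel family dimers to enter the nucleus. In mammals the IkB alpha gene is itself a direct target of NF-kB, and its product returns the dimers to the cytoplasm. A second, slower branch runs through the kinase NIK, the processing of the NF-kB2 precursor and the partner protein RelB. In the zebrafish IkB alpha is encoded by a pair of genes, nfkbiaa and nfkbiab.

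The libraries held 21870245 to 60377642 counts. RPE markers took 55600 to 191000 CPM (counts scaled to equal TMM-adjusted library sizes) in every library, summed over 21 genes. Their sum was 83600 to 91900 CPM in ablated libraries and 139000 to 191000 CPM in unablated ones at 2 dpi, and the groups overlapped at 4 and 7 dpi. Rpe65a, the visual cycle isomerase, was present in all 18 libraries, at 3670 to 29700 CPM. Markers of macrophages and microglia, summed over 26 genes, came to 15.2 to 36.5 CPM in ablated libraries and 13.2 to 48.7 CPM in unablated ones at 2 dpi. At 4 dpi these sums were 57.0 to 335 CPM in ablated libraries and 13.4 to 169 CPM in unablated ones, and at 7 dpi 29.9 to 1280 CPM in ablated libraries and 15.3 to 145 CPM in unablated ones. The complement gene c1qa was at or near 0 in all 18 libraries, with a highest value of 0.106 CPM. The macrophage gene mpeg1.1 reached 123 CPM in ablated 7 dpi replicate 3, which stands apart from the other libraries in these markers.

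Per length, the IkB alpha genes were, on average over all libraries, the most abundant of the 10. Over the 18 libraries nfkbiab averaged 207 ± 74.6 TPM (SD, n = 18), the length-scaled unit of the authors' tables. Nfkbiaa followed at 28.1 ± 24.6 TPM. The Rel genes nfkb2 at 6.91 ± 4.48 TPM, relb at 5.98 ± 3.24 TPM and rela at 5.76 ± 2.83 TPM came next and did not differ beyond their spread. Below them lay tnfb at 2.79 ± 4.86 TPM, il1b at 2.27 ± 2.52 TPM and nfkbiz at 1.44 ± 1.66 TPM, again within each other's spread. Nfkb1 averaged 0.213 ± 0.204 TPM and tnfa 0.0349 ± 0.140 TPM. The nfkb1 level was therefore a small part of that of nfkb2, its closest relative among the members. The order differed between groups. In unablated libraries at 2 dpi nfkbiaa averaged 1.88 ± 0.406 TPM (SD, n = 3). That mean was below those of relb (5.49 ± 5.35 TPM), rela (3.21 ± 1.18 TPM) and nfkb2 (2.66 ± 2.14 TPM) in the same libraries.

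Ablation was followed by higher nfkbiaa at 2 dpi, the clearest response of the 10 genes. Nfkbiaa lies on chromosome 20 from 16982300 to 16985154 (GRCz10, plus strand). At 2 dpi it stood at 26.3, 104 and 56.1 CPM in the ablated libraries, against 1.21, 3.50 and 3.34 CPM in the unablated libraries of replicates 1, 2 and 3. All 3 ablated libraries lay above all 3 unablated ones, and the lowest of them was several times the highest unablated value. The share of all tested genes with groups apart, or with a given pair count, was not computed for this or any later comparison. The means were 62.3 ± 39.4 CPM in ablated libraries and 2.68 ± 1.28 CPM in unablated ones (SD, n = 3 each). The log2 fold change, ablated over unablated, was 4.54 (SE 0.964, 95% interval 2.51 to 6.57), and nfkbiaa rose with an adjusted p of 0.0239 by the quasi-likelihood test of edgeR. It was the only tested member to pass at 2 dpi, 1 of 9, where 2.25% of all 20093 tested genes passed, 1.39% as rises and 0.856% as falls.

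With the libraries paired by replicate number, the nfkbiaa log2 fold change at 2 dpi was 4.47 (SE 0.369) and its adjusted p 0.000159 in edgeR. Without the pairing the call rested on most of the 2 dpi libraries. Leaving out ablated 2 dpi replicate 2 gave nfkbiaa an adjusted p of 0.0666, and leaving out unablated 2 dpi replicate 1, 2 or 3 gave 0.0729, 0.0846 or 0.0760, while the log2 fold change stayed between 4.00 and 4.90. In bulk libraries fewer cells of a type and less RNA per cell cannot be told apart. The sums of macrophage markers overlapped between the groups at 2 dpi. By sign 7 of 25 tested markers were higher in ablated libraries, with a median log2 fold change of -1.11. Ablated replicate 2, the library with the most nfkbiaa, had the highest ablated sum, 36.5 CPM. It held 5.72 CPM of spi1b, 3.24 CPM of mfap4, 1.64 CPM of coro1a and 0.0887 CPM of mpeg1.1. Unablated replicates 1 and 3 had larger sums, 48.7 and 48.1 CPM, with 1.21 and 3.34 CPM of nfkbiaa. Neutrophil markers, summed over 14 genes, were 41.5 to 138 CPM in ablated libraries and 22.0 to 33.1 CPM in unablated ones at 2 dpi, most of it srgn and scpp8, with mpx at most 5.16 CPM and npsn at most 0.0898 CPM in any library at that time. Lyz was at 0.0249, 1.15 and 0.789 CPM in ablated libraries and at 0 in all 3 unablated ones at 2 dpi, and scpp8 rose with pairing (7.55, edgeR adjusted p 0.00361). Markers of retinal neurons and Mueller glia, over 21 genes, were 353 to 1120 CPM in ablated libraries and 1660 to 5650 CPM in unablated ones at that time. Most of this sum was 1 gene, glula, at 229 to 930 CPM in ablated libraries and 1080 to 5410 CPM in unablated ones. With pairing 4 of 19 tested genes of this list fell and 1, gad2, rose at 2 dpi, where 14.4% of all tested genes passed. Photoreceptor markers were higher in ablated libraries for 3 of 27 tested genes by sign at 2 dpi, with a median log2 fold change of -2.44. With pairing 7 of them fell and 0 rose. Keratinocyte and corneal epithelium markers were higher for 3 of 19, with a median of -3.31, and 1 fell with pairing. The summed CPM of both lists overlapped between the groups. The part of all these cell types in the nfkbiaa result, and in the results for nfkb2 and the pathway lists at 2 dpi, was not tested.

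At 4 dpi nfkbiaa stood at 36.2, 41.5 and 28.9 CPM in the ablated libraries and at 10.4, 5.22 and 9.25 CPM in the unablated ones. The groups again did not overlap, and the gap was narrower than at 2 dpi. The ablated mean was 35.5 CPM, beside 62.3 CPM at 2 dpi, and the unablated mean 8.29 CPM, beside 2.68 CPM. The difference of effects, 4 minus 2 dpi, did not pass in edgeR without pairing or with it (adjusted p 0.081). The log2 fold change was 2.099 (SE 0.863, 95% interval 0.28 to 3.92) with an adjusted p of 0.335 in edgeR, so the change did not pass without pairing. Paired by replicate number it was 2.14 (SE 0.334) and passed, with an adjusted p of 0.00487.

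At 7 dpi nfkbiaa spread widely in both groups, with 5.64, 84.5 and 15.0 CPM in the ablated and 4.46, 43.6 and 17.8 CPM in the unablated libraries. Replicate 2 was the highest library of either group and replicate 1 the lowest. The log2 fold change of nfkbiaa was 0.67 (SE 0.833, 95% interval -1.08 to 2.43, edgeR adjusted p 0.930), and with pairing it was 0.35 (adjusted p 0.657). Averaged over the 3 times, nfkbiaa rose, at 2.44 on the log2 scale (SE 0.506, edgeR adjusted p 0.00831), and it was higher in the ablated library of 8 of 9 pairs. This mean effect passed for 2 of the 9 tested members, nfkbiaa and nfkb2, and for 8.03% of all tested genes, 4.34% as rises and 3.69% as falls. In the same mean effect the neutrophil markers lyz, scpp8 and srgn rose, 3 of 9 tested, as did the macrophage markers cd74b and irf8, 2 of 25 tested. Of the tested markers of retinal neurons and Mueller glia 5 of 19 fell. So did 1 of 27 photoreceptor markers and 2 of 19 keratinocyte and corneal epithelium markers, while 1 of 3 erythrocyte markers rose. The part of these cell types in the result was not tested.

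The other IkB alpha gene, nfkbiab, did not pass without pairing at any time and fell at 2 dpi with it. Nfkbiab lies on chromosome 17 from 12788568 to 12792670. At 2 dpi it stood at 57.1, 341 and 128 CPM in ablated libraries and at 172, 393 and 371 CPM in unablated ones. Each ablated library was below its unablated partner of the same number, but the groups overlapped. The log2 fold change was -0.83 (SE 0.569, 95% interval -2.03 to 0.37) with an adjusted p of 0.520 in edgeR. With pairing, nfkbiab fell by 1.12 on the log2 scale (SE 0.276, edgeR adjusted p 0.0211). Without pairing its 2 dpi value ran from -1.70, without ablated replicate 2, to -0.43, without ablated replicate 1. At 4 dpi the nfkbiab levels were 131 to 174 CPM in ablated libraries and 132 to 186 CPM in unablated ones, and at 7 dpi 117 to 351 CPM in ablated libraries and 150 to 345 CPM in unablated ones, with log2 fold changes of -0.16 and 0.05 that did not pass.

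The share of nfkbiaa in the TPM of the pair was higher in the ablated library of 8 of 9 pairs. These shares were chosen for description after the values had been seen and carry no test. At 2 dpi nfkbiaa made up 32.5%, 24.3% and 31.4% of the summed nfkbiaa and nfkbiab TPM in the ablated libraries, against 0.731%, 0.925% and 0.934% in the unablated ones. At 4 dpi the nfkbiaa share was 18.8% to 20.9% in ablated libraries and 2.92% to 6.85% in unablated ones. At 7 dpi it was 2.68% to 20.2% in ablated libraries and 2.77% to 11.7% in unablated ones. The share was thus far apart at 2 dpi, closer at 4 dpi and overlapping at 7 dpi, and every unablated share at 4 and 7 dpi lay above those at 2 dpi. The 2 genes are paralogs, and the rule by which reads shared between them were counted is not given in the sources used here.

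**Figure D1:**
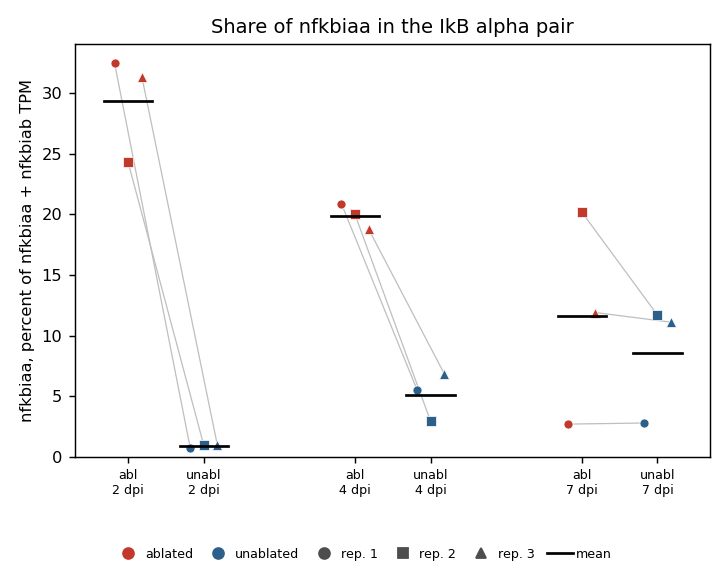
Percent of the summed nfkbiaa and nfkbiab TPM that came from nfkbiaa (vertical axis) in each of the 18 libraries, by group; points are libraries, grey lines join libraries of the same replicate number and bars are means of 3. At 2 dpi the ablated libraries sit between 24.3% and 32.5% and the unablated ones below 1%, and at 7 dpi the groups overlap.

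Nfkb2 was the other member that rose. It encodes the precursor that is processed into a Rel subunit of the slower NF-kB branch, and it lies on chromosome 13 from 22586916 to 22605097. At 2 dpi nfkb2 stood at 23.4, 16.8 and 17.6 CPM in ablated libraries and at 10.9, 5.88 and 6.79 CPM in unablated ones, without overlap. At 4 dpi the nfkb2 values were 23.2, 24.7 and 31.7 CPM in ablated libraries and 11.2, 13.1 and 15.2 CPM in unablated ones, again without overlap. At 7 dpi they were 18.4, 9.62 and 20.2 CPM in ablated libraries and 12.3, 7.26 and 7.05 CPM in unablated ones, and here the groups overlapped. The ablated library was the higher in 9 of 9 pairs, which held for no other member. How many of all tested genes do the same was not computed.

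The nfkb2 log2 fold change was 1.29 (SE 0.397) at 2 dpi, 1.01 (SE 0.393) at 4 dpi and 0.86 (SE 0.393) at 7 dpi. None of the 3 passed alone in edgeR, with adjusted p of 0.0952, 0.309 and 0.756. With pairing, nfkb2 passed at 2 dpi (adjusted p 0.00945) and at 4 dpi (0.0454) and not at 7 dpi (0.222). Averaged over the times nfkb2 rose, at 1.05 on the log2 scale (SE 0.228, 95% interval 0.57 to 1.53, edgeR adjusted p 0.0102), a ratio of 2.07. That mean effect kept an adjusted p under the threshold of 0.05 in every refit that left out 1 library; with limma on the authors' TPM it was 0.87 with an adjusted p of 0.0969. Paired, the mean effect passed for 21.5% of all tested genes, nfkbiaa and nfkb2 among them.

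Rela and relb, the Rel subunits with transactivation domains, did not pass in any ablation comparison. Rela (chromosome 7, 626603 to 667906, minus strand) stood at 17.0, 22.8 and 30.1 CPM in ablated libraries and at 17.1, 25.7 and 17.8 CPM in unablated ones at 2 dpi. Its log2 fold change was 0.21 with a 95% interval of -0.61 to 1.02. At 4 dpi rela was at 17.0 to 24.9 CPM in ablated libraries and at 15.0 to 31.9 CPM in unablated ones, overlapping. At 7 dpi rela was at 15.0, 28.6 and 27.8 CPM in ablated libraries and at 33.4, 37.2 and 52.8 CPM in unablated ones. The ablated group lay wholly below the unablated one there, the only such case among the members. How often this happens over all tested genes was not computed. The rela log2 fold change was -0.79 (SE 0.388) with an adjusted p of 0.760 in edgeR.

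Relb, the partner of the processed NF-kB2 protein, lies on chromosome 15 from 17164390 to 17189195. It stood at 22.5, 18.8 and 10.1 CPM in ablated libraries and at 27.3, 10.1 and 13.7 CPM in unablated ones at 2 dpi, with a log2 fold change of 0.01 and a 95% interval of -1.06 to 1.08. At 4 dpi relb was at 12.4 to 22.8 CPM in ablated libraries and at 12.8 to 18.6 CPM in unablated ones. At 7 dpi relb was at 5.41 to 10.7 CPM in ablated libraries and at 6.30 to 22.3 CPM in unablated ones, with a log2 fold change of -0.68 (SE 0.509, edgeR adjusted p 0.866). The groups overlapped at all 3 times. The interval at 2 dpi spans a change as large as the mean nfkb2 effect in either direction, so these data do not show that relb kept its level.

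Relative to rela and relb, nfkb2 was higher in the ablated library of every pair. These ratios, too, were chosen after the values had been seen. The ratio of nfkb2 to rela TPM was 2.58, 1.37 and 1.09 in ablated libraries and 1.2, 0.428 and 0.711 in unablated ones at 2 dpi. It exceeded the unablated partner in 9 of 9 pairs, and so did the ratio of nfkb2 to relb TPM.

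**Figure D2:**
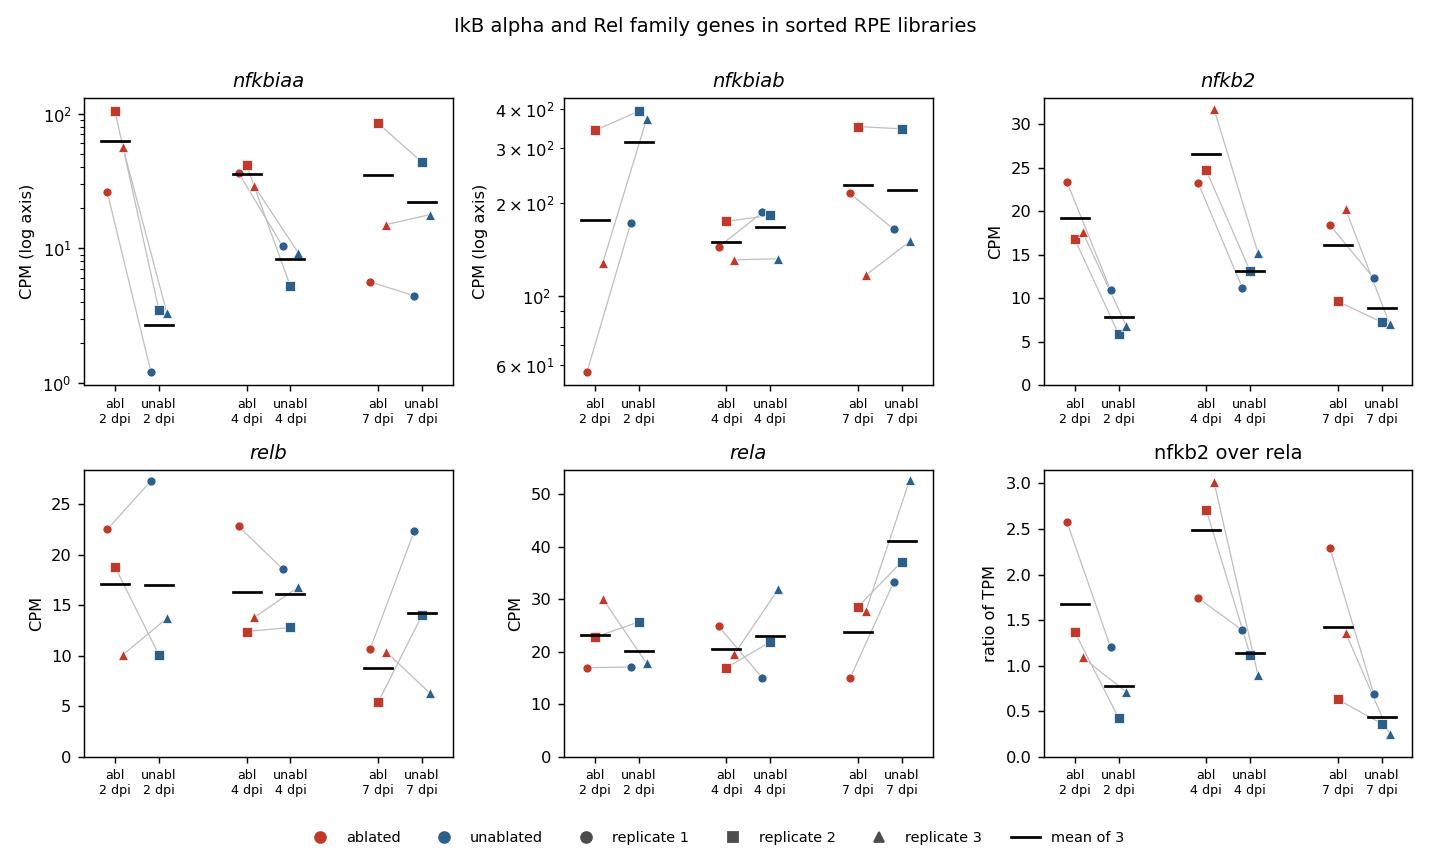
CPM of nfkbiaa and nfkbiab (log axes) and of nfkb2, relb and rela (linear axes), and the ratio of nfkb2 to rela TPM, in each of 18 libraries; points are libraries, grey lines join libraries of the same replicate number and bars are means of 3. Nfkbiaa and nfkb2 lie higher in ablated than in unablated libraries at 2 and 4 dpi without overlap, while nfkbiab and relb overlap at every time.

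Nfkb1, which encodes the precursor of the main partner of RelA (chromosome 14, 50609994 to 50657925, minus strand), was barely detected. Its counts ran from 0 to 23 per library. At 2 dpi nfkb1 had 9, 4 and 17 counts in the ablated and 4, 0 and 1 counts in the unablated libraries, 0.224, 0.177 and 0.789 CPM against 0.0988, 0 and 0.0388 CPM. The ablated CPM lay above the unablated ones, although 4 counts were both the lowest ablated and the highest unablated count, and the log2 fold change of 2.93 (SE 1.58, edgeR adjusted p 0.379) did not pass. At 4 and 7 dpi the nfkb1 groups overlapped, with at most 0.452 CPM in ablated libraries and 0.656 CPM in unablated ones. Differences of this gene were not resolved at this depth.

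Nfkbiz encodes a nuclear IkB protein that acts on inflammatory genes inside the nucleus, and it is placed on chromosome 1 from 18716 to 23389. At 2 dpi nfkbiz stood at 1.27, 1.29 and 0.557 CPM in ablated libraries and at 0.321, 0.225 and 0 CPM in unablated ones. The groups did not overlap in CPM, but they did in counts, at 12 to 51 in ablated libraries and 0 to 13 in unablated ones. The log2 fold change of 2.47 (SE 1.43) had an adjusted p of 0.420 in edgeR. At 4 dpi nfkbiz was at 0.850 to 2.21 CPM in ablated libraries and at 0.304 to 1.81 CPM in unablated ones. At 7 dpi nfkbiz was at 2.63, 0.902 and 0 CPM in ablated libraries and at 0.757, 7.45 and 2.98 CPM in unablated ones, so its highest value of all 18 libraries was unablated 7 dpi replicate 2. Neither later difference passed, with log2 fold changes of 0.77 and -1.66.

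Of the cytokine genes, tnfa was all but absent. Tnfa lies on chromosome 19 from 27435209 to 27439796. It had 15 counts in ablated 4 dpi replicate 3 and 1 count in unablated 4 dpi replicate 1, and no count in the other 16 libraries. A count of 0 allows up to 3 counts in a library, which is 0.0411 to 0.150 CPM at these depths, for counting error only. The library with 15 tnfa counts also had the highest il1b level of all.

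Tnfb, a TNF paralog on chromosome 15 from 34841616 to 34844692, was detected more often in ablated libraries. At 2 dpi tnfb stood at 1.89, 3.55 and 0.510 CPM in ablated libraries and at 0, 0 and 0.388 CPM in unablated ones, which are 76, 80 and 11 counts against 0, 0 and 10 counts. The groups did not overlap, though the margin between the lowest ablated and the highest unablated library was a single count. The log2 fold change of 3.94 (SE 2.41, 95% interval -1.14 to 9.01) had an adjusted p of 0.453 in edgeR, and it was 9.24 without unablated 2 dpi replicate 3, the only unablated library with a tnfb count at that time. At 4 dpi tnfb was at 1.27, 5.71 and 3.43 CPM in ablated libraries and at 0, 2.53 and 0 CPM in unablated ones, and at 7 dpi at 0.782, 0.301 and 7.64 CPM in ablated libraries and at 0, 19.4 and 0.0984 CPM in unablated ones. The 4 dpi log2 fold change of tnfb, 2.03 (edgeR adjusted p 0.819), ran from 1.46 to 10.002 when each library was left out. Tnfb was thus higher in the ablated library of 8 of 9 pairs, and the exception, replicate 2 at 7 dpi, held the highest value of all. At 7 dpi the direction depended on the fit, with a log2 fold change of -1.16 (edgeR adjusted p 0.961) that became 3.77 with pairing (adjusted p 0.670).

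Il1b lies on chromosome 10 from 45109897 to 45117159. At 2 dpi il1b stood at 0.823, 1.77 and 1.11 CPM in ablated libraries and at 0.0247, 0 and 1.28 CPM in unablated ones. At 4 dpi the il1b values were 0.0685, 3.37 and 7.14 CPM in ablated libraries and 3.57, 2.6 and 0.106 CPM in unablated ones. At 7 dpi they were 5.83, 0.601 and 3.36 CPM in ablated libraries and 1.71, 5.16 and 0.820 CPM in unablated ones. The groups overlapped at all 3 times, the spread was as wide as the mean in ablated libraries at 4 dpi, and the ablated library was the higher in 6 of 9 pairs. The il1b log2 fold changes of 1.51, 0.75 and 0.35 at 2, 4 and 7 dpi had edgeR adjusted p of 0.715, 0.919 and 0.989, and the 95% interval at 2 dpi ran from -1.80 to 4.81. The 2 dpi value was 6.12 without unablated replicate 3 and 0.93 without unablated replicate 1, and passed in neither fit.

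Il1b and tnfb levels were set beside the macrophage marker sum of each library. Unablated 7 dpi replicate 2, the highest in tnfb, had a marker sum of 145 CPM, and ablated 4 dpi replicate 3, the highest in il1b, had 136 CPM. The library with the largest marker sum, ablated 7 dpi replicate 3 at 1280 CPM, had 3.36 CPM of il1b and 7.64 CPM of tnfb. Ablated 7 dpi replicate 2 had a marker sum of 29.9 CPM, 0.601 CPM of il1b and 0.301 CPM of tnfb. The smallest sum, 13.2 CPM, was in unablated 2 dpi replicate 2, which had no count of either gene. The cytokine levels did not follow the sum in every library. Ablated 2 dpi replicate 1 had a sum of 15.2 CPM with 0.823 CPM of il1b and 1.89 CPM of tnfb. Unablated 4 dpi replicate 1 had 49.7 CPM with 3.57 CPM of il1b and no tnfb count. The part of such cells in the cytokine levels was not tested.

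**Figure D3:**
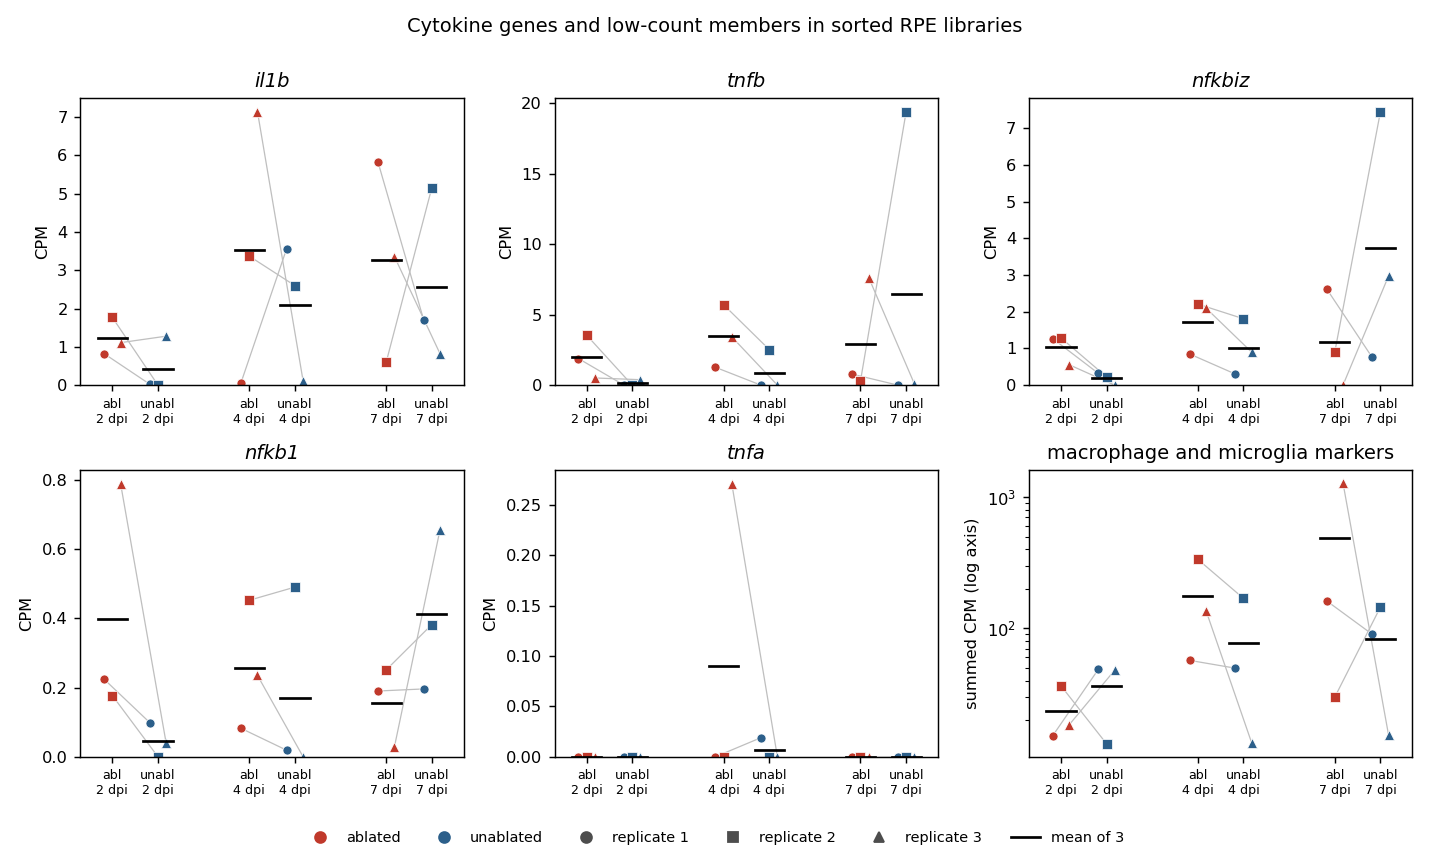
CPM of il1b, tnfb, nfkbiz, nfkb1 and tnfa (linear axes) and the summed CPM of 26 macrophage and microglia markers (log axis) in each of 18 libraries; points are libraries, grey lines join libraries of the same replicate number and bars are means of 3. Il1b overlaps between ablated and unablated libraries at every time, tnfa has a count in 2 libraries, and the marker sum is highest in ablated 7 dpi replicate 3.

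The members were chosen with earlier results of these data known, so counts and medians over the set are no independent test of a shift. Counted over the set, 8 of the 9 tested members had a log2 fold change above 0 at 2 dpi, 7 at 4 dpi and 4 at 7 dpi. The median of the members was 1.51 at 2 dpi, beside -0.03 over all tested genes, 0.75 at 4 dpi beside -0.07, and -0.68 at 7 dpi beside -0.004. Few of these single changes passed: 1 at 2 dpi, and 0 at 4 and 7 dpi, where 0.0946% and 0% of all tested genes passed in edgeR. At 4 dpi 2 members had an unadjusted p under 0.05 in edgeR, nfkbiaa and nfkb2, as had 2354 of all 20093 tested genes. At 7 dpi 1 member had, nfkb2, as had 1328 of all tested genes. DESeq2 called 0 members at either time. At 2 dpi DESeq2 called 2, nfkbiaa and nfkb2, where it called 8.75% of all tested genes. With pairing 3 members passed at 2 dpi, 2 at 4 dpi and 0 at 7 dpi, where 14.4%, 8.62% and 0.00498% of all tested genes did.

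**Figure D4:**
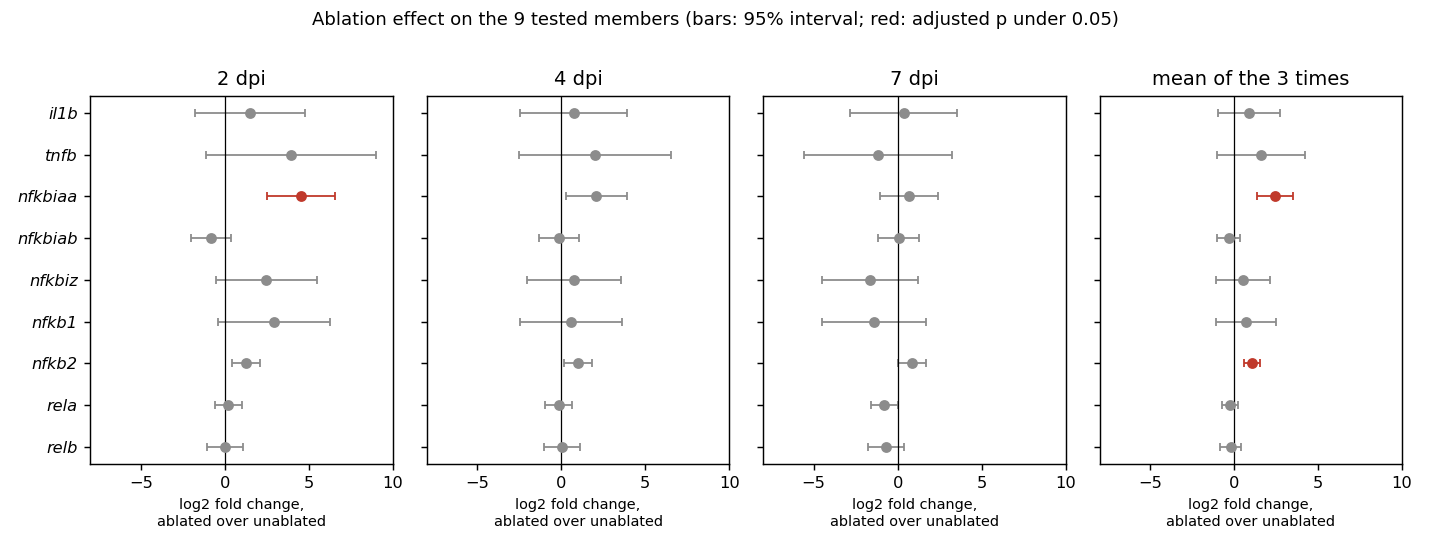
Log2 fold change, ablated over unablated, of the 9 tested members (rows) at 2, 4 and 7 dpi and averaged over the 3 times, from edgeR without pairing; bars are 95% intervals and red marks an adjusted p under 0.05. Nfkbiaa is marked at 2 dpi and in the mean, nfkb2 in the mean, and the intervals of il1b, tnfb, nfkbiz and nfkb1 are the widest.

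The effect of ablation on nfkbiaa became smaller with time when the change in effect was itself tested with pairing. The effect at 7 dpi minus that at 2 dpi was -4.12 (SE 0.473) on the log2 scale with an adjusted p of 0.00585 in edgeR, a difference that passed for 4.29% of all tested genes. Without pairing it was -3.87 (SE 1.22, 95% interval -6.44 to -1.30) and did not pass, with an adjusted p of 0.337. Without pairing, 0 members and 0% of all genes passed for 4 minus 2, 7 minus 2 or 7 minus 4 dpi. DESeq2 called 0 members in each. In edgeR nfkbiaa was the only member with an unadjusted p under 0.05, for 7 minus 2 dpi. Of all 20093 tested genes 2060 had such a p there. The nfkb2 effect at 7 minus 2 dpi differed by -0.43 (95% interval -1.60 to 0.73), so a change by as much as the 2 dpi effect itself lies within the interval.

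Time within a treatment was read from the same fit. In ablated libraries nfkbiaa averaged 62.3 ± 39.4 CPM at 2 dpi, 35.5 ± 6.34 CPM at 4 dpi and 35.0 ± 43.1 CPM at 7 dpi (SD, n = 3 each). In unablated libraries it averaged 2.68 ± 1.28 CPM, 8.29 ± 2.72 CPM and 22.0 ± 19.9 CPM at these times. Unablated 7 minus 2 dpi gave nfkbiaa a log2 difference of 3.04 (SE 0.902) with an adjusted p of 0.0656 in edgeR, rela 1.03 (adjusted p 0.138), nfkbiz 4.31 (adjusted p 0.115) and tnfb 5.64 (adjusted p 0.218). These 4 had an unadjusted p under 0.05 in edgeR, as had 4224 of all 20093 tested genes. None of the 4 passed, where 3.86% of all genes did. DESeq2 called nfkbiaa (adjusted p 0.00734) and nfkbiz (adjusted p 0.00959), where it called 12.8% of all genes. Limma on log2(TPM + 1) called nfkbiaa (2.83, adjusted p 0.0329) and rela (1.45, adjusted p 0.0447), where it called 5.3% of all genes. For nfkbiaa, leaving out unablated 7 dpi replicate 1 gave an adjusted p of 0.0414, and leaving out ablated 7 dpi replicate 1 or 2, which enter through the shared spread and scaling, gave 0.0454 and 0.0449. Ablated 7 minus 2 dpi called 0 members in edgeR and in DESeq2, where 6.75% of all genes passed in edgeR. An unadjusted p under 0.05 in edgeR was found for 0 members and for 4568 of all tested genes.

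Other genes of the pathways were read from 8 lists with 113 tested genes, of which 4 rose and 0 fell at 2 dpi in edgeR without pairing, where 2.25% of all tested genes passed. With pairing 17 rose and 2 fell, where 14.4% of all genes passed, so neither count stands far from the share over all genes. In the mean effect over the 3 times 12 rose and 5 fell, against 8.03% of all genes, and with pairing 17 rose and 13 fell, against 21.5%. Among TNF receptors and adaptors, casp8, the initiator protease recruited by death receptors, rose. It stood at 55.7, 41.4 and 12.9 CPM in ablated libraries and at 12.4, 6.33 and 3.57 CPM in unablated ones at 2 dpi, without overlap, with a log2 fold change that was 2.30 (SE 0.570, adjusted p 0.0442). Casp8 averaged 20.7 ± 3.96 CPM in ablated libraries and 7.95 ± 2.45 CPM in unablated ones at 4 dpi, and 17.0 ± 2.84 CPM in ablated libraries and 4.33 ± 2.45 CPM in unablated ones at 7 dpi, higher in the ablated library of every pair. It was the only 1 of the 15 tested genes of its list to pass, and the list's median log2 fold change at 2 dpi was 0.60, beside -0.03 over all genes. With pairing the receptor gene tnfrsf1a (1.44, edgeR adjusted p 0.0120) and the TNF-shedding protease gene adam17a (1.27, adjusted p 0.0361) also rose at 2 dpi. With pairing at 4 dpi 2 genes of this list rose and 1 fell, where 8.62% of all genes passed. The fall was in cflara (-1.09, edgeR adjusted p 0.0226). In the paired mean effect 2 rose and 2 fell, cflara and birc2, against 21.5% of all genes. The list's median log2 fold change without pairing was 0.27 at 4 dpi and -0.41 at 7 dpi.

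Among 32 tested genes that are known NF-kB targets in vertebrates, 3 rose at 2 dpi and none fell, where 2.25% of all tested genes passed. This list was chosen with earlier results of these data known, so its counts are no independent test of NF-kB activity. The 3 genes were il11b, a cytokine of the interleukin 6 family, cxcl18b, a chemokine, and saa, an acute phase gene. Cxcl18b stood at 689, 976 and 2410 CPM in ablated libraries and at 26.3, 34.3 and 35.0 CPM in unablated ones, with a log2 fold change that was 5.41 (SE 1.06, adjusted p 0.0178). Il11b averaged 163 ± 84.2 CPM in ablated libraries and had no count in the unablated ones, at least 1510-fold higher where 3 counts are granted to each unablated library. Saa stood at 0.848, 6.52 and 24.6 CPM in ablated libraries, a mean of 10.7 ± 12.4 CPM, likewise against no count. On that mean saa was at least 98.4-fold higher. Both bounds use the ablated mean and allow only for counting error in unablated libraries, not for the spread between ablated ones. The median log2 fold change of the list was 1.05 at 2 dpi, 1.09 at 4 dpi and 0.01 at 7 dpi. It held 23 genes above 0 at 2 dpi, 23 at 4 dpi and 16 at 7 dpi. With pairing 10 of the 32 rose and 1 fell at 2 dpi, and 8 rose and 1 fell at 4 dpi, where 14.4% and 8.62% of all tested genes passed in either direction. The gene that fell at either time was steap4, a metalloreductase gene, which fell by 1.93 and by 1.03 on the log2 scale (adjusted p 0.000484 and 0.0156). In the mean effect 8 rose, tnfaip2b among them (6.06, SE 1.12, edgeR adjusted p 0.00716), and 2 fell, the AP-1 gene junbb and steap4, where 8.03% of all genes passed. Many of these genes are known to respond to other signals of injury as well.

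A kinase gene of the slower NF-kB branch moved. Map3k14a, which encodes NIK, stood at 17.3, 9.71 and 13.3 CPM in ablated libraries and at 5.16, 1.39 and 2.72 CPM in unablated ones at 2 dpi, without overlap. Its mean effect over the 3 times passed, with a log2 fold change that was 1.28 (SE 0.312, edgeR adjusted p 0.0191), and with pairing it also passed at 2 dpi, at 2.26 (SE 0.359, adjusted p 0.00231). Nfkbie, the gene of IkB epsilon, went the other way in the mean effect, which fell by 1.34 on the log2 scale (SE 0.379, edgeR adjusted p 0.0382). Nfkbie stood at 10.1, 7.05 and 8.12 CPM in ablated libraries and at 25.2, 20.2 and 23.9 CPM in unablated ones at 2 dpi, and the groups overlapped at 4 and 7 dpi. Map3k14a and nfkbie were picked for description after their values were seen. Map3k14b, of the same list, had log2 fold changes of -0.42, 2.52 and 2.18 at 2, 4 and 7 dpi. None of these passed (edgeR adjusted p 0.943, 0.630 and 0.872). Of the 14 tested genes in this list of IkB kinases and other Rel and IkB genes, 0 passed at any single time in edgeR without pairing. In that fit 4, 2 and 0 of the 14 had an unadjusted p under 0.05 at 2, 4 and 7 dpi. Of all 20093 tested genes 3312, 2354 and 1328 had such a p. Those with the most counts, nkap and chuk, a nuclear NF-kB activator and IkB kinase alpha, averaged 242 ± 123 CPM and 55.5 ± 47.5 CPM in ablated libraries and 166 ± 85.3 CPM and 46.9 ± 44.4 CPM in unablated ones at 2 dpi.

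The receptor and feedback lists gave less. At 2 dpi none of the 12 tested genes of IL-1 receptors and adaptors passed in edgeR without pairing. The same held for the 6 for IL-1 processing and inflammasomes and the 8 other TNF superfamily ligands. It also held for the 15 feedback inhibitors and the 11 Toll-like receptor genes. In these lists 2, 0, 2, 3 and 2 genes had an unadjusted p under 0.05, as had 3312 of all 20093 tested genes. The median log2 fold changes of these lists at 2 dpi were -0.18, -0.76, 0.63, 0.40 and 0.79. Map3k7, the gene of the kinase TAK1, named from the IL-1 list for its counts, averaged 39.1 ± 9.31 CPM in ablated libraries and 53.9 ± 9.01 CPM in unablated ones. Peli1b, a Pellino ubiquitin ligase gene of the same list, averaged 25.7 ± 7.20 CPM in ablated libraries and 33.8 ± 12.5 CPM in unablated ones. Irak3, the gene of an inhibitory kinase of that list, passed as a rise in the mean effect (3.90, SE 1.09, edgeR adjusted p 0.0402), with no count in the unablated libraries at 2 dpi. It did not pass with pairing, where 0 genes of that list rose in the mean effect and 4 fell, map3k7 and peli1b among them. Of all tested genes 21.5% passed in that paired mean effect. Of the TNF superfamily ligands, tnfsf10l averaged 11.5 ± 5.14 CPM in ablated libraries and 19.7 ± 4.17 CPM in unablated ones at 2 dpi. Tnfsf12 had no count in ablated libraries at 2 dpi and stood at 0.617, 0 and 0.0776 CPM in unablated ones, and at 7 dpi its highest value, 36.2 CPM, was in ablated replicate 3, the library with the most macrophage marker RNA. Tnip1, an inhibitor that works with A20, averaged 70.5 ± 22.2 CPM in ablated libraries and 41.4 ± 14.8 CPM in unablated ones, and rose with pairing (0.77, adjusted p 0.0238). Otulinb, the gene of a deubiquitinase, averaged 20.4 ± 1.36 CPM in ablated libraries and 20.4 ± 3.23 CPM in unablated ones at 2 dpi. Its ablated and unablated means were 16.0 and 10.2 CPM at 4 dpi, and 16.7 and 10.4 CPM at 7 dpi. In the paired mean effect 2 feedback inhibitors rose, otulinb (0.463, edgeR adjusted p 0.0487) and otulina, and 1 fell, n4bp1 (-0.675, adjusted p 0.0371). Otulina also rose at 2 dpi with pairing (1.21, edgeR adjusted p 0.0372). A second tested gene named otulina passed neither there nor in the paired mean effect. Its log2 fold changes without pairing were 1.04, -0.032 and -0.847 at 2, 4 and 7 dpi. Tnip2, at most 1.28 CPM in any library, passed as a rise in the mean effect (4.64, SE 1.31, edgeR adjusted p 0.0421), but not with pairing. Tlr18, a Toll-like receptor gene of fish, averaged 17.4 ± 6.80 CPM in ablated libraries and 43.8 ± 17.6 CPM in unablated ones, and fell by 1.36 on the log2 scale with pairing (adjusted p 0.00429). It also fell in the mean effect without pairing, as did tlr7, which fell by 1.365 on the log2 scale (edgeR adjusted p 0.0249). Ticam1, a Toll-like receptor adaptor gene, averaged 5.98 ± 2.18 CPM in ablated libraries and 5.12 ± 1.74 CPM in unablated ones at 2 dpi.

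The inflammasome genes varied from library to library, and 0 of 6 passed at any time in edgeR, with or without pairing. Without pairing 0, 1 and 2 had an unadjusted p under 0.05 at 2, 4 and 7 dpi. Of all 20093 tested genes 3312, 2354 and 1328 had such a p. Pycard, the adaptor that gathers caspases at inflammasomes, stood at 3.41, 0.0501 and 13.0 CPM in ablated libraries and at 0.953, 0.573 and 0 CPM in unablated ones at 7 dpi. Caspb, a caspase of the inflammatory class, stood at 0.0948, 0.0501 and 44.8 CPM in ablated libraries and at 0.196, 0.115 and 0.0984 CPM in unablated ones at that time. Ablated 7 dpi replicate 3, the library with the highest macrophage marker sum, held the highest value of either gene. Over the 8 lists 0 of 113 genes passed at 4 and at 7 dpi in edgeR without pairing. At these times 22 and 11 had an unadjusted p under 0.05, as had 2354 and 1328 of all 20093 tested genes. With pairing 13 passed at 4 dpi and 0 at 7 dpi, where 8.62% and 0.00498% of all tested genes did.

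**Figure D5:**
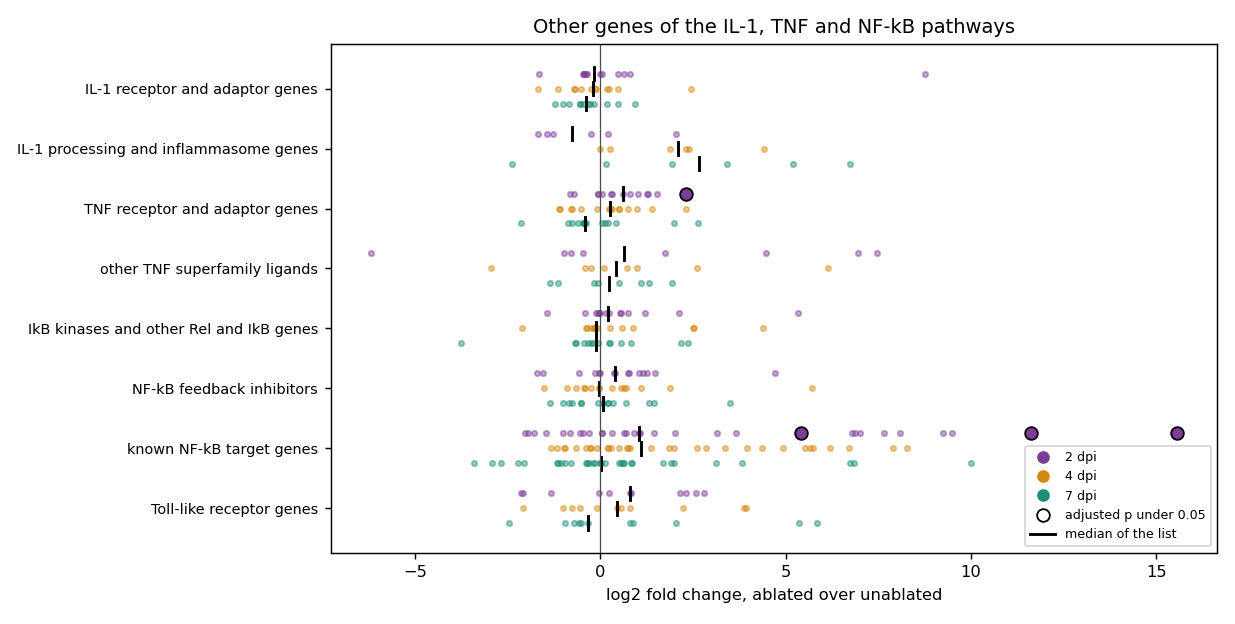
Log2 fold change, ablated over unablated, of the 113 tested genes of 8 pathway lists at 2, 4 and 7 dpi, from edgeR without pairing; small points are genes, large outlined points have an adjusted p under 0.05 and black ticks are list medians. The outlined points are casp8 in the TNF receptor list and cxcl18b, saa and il11b among the known targets, all at 2 dpi; fitted values of il11b and saa have no unablated count behind them.

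Among the genes whose levels ran most like nfkbiaa over the 18 libraries were edn2, an endothelin, with a Pearson r of 0.874 on log2 CPM, nrg1, a neuregulin, with 0.856, tmem47 with 0.846 and syt5b with 0.835. For il1b the closest genes were pde6a (0.798), a rod phosphodiesterase gene, and pdp2 (0.797), each of about 2 CPM on average (2.09 and 2.07 CPM), then si:ch211-106m9.1 (0.773), CABZ01066813.1 (0.766) and si:ch211-269k10.5 (0.761), all under 1 CPM. These correlations describe the same 18 libraries, which share groups, depth and sorting, and at such low levels the il1b order carries little weight.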

How the data were processed

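The authors deposited, per the file headers, total counts and TPM of each gene in 1 table for each time, from paired and trimmed reads. Per the labels' protocols, libraries were made with the SMART-Seq v4 and Nextera XT kits; the genome build is GRCz10 per the submitters' processing notes. Of the aligner, the counting rule and the annotation, the sources used here give nothing. All columns were matched to a sample, and 0 were left over. The title of unablated 4 dpi replicate 1 contains the word positive, which its description calls a naming error, and the treatment label was followed.

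Counts were fitted with edgeR 4.0.16 in R 4.3.3: filterByExpr by group (20093 of 29481 genes with a count), TMM scaling, a robust quasi-likelihood model of 6 group means over 18 libraries (12 residual degrees of freedom, biological coefficient of variation 79.9%), and Benjamini-Hochberg adjustment over every tested gene, threshold 0.05. Pairing adds the 9 pairs of equal replicate number (6 residual degrees of freedom). After removal of group means, each ablated library correlated with the unablated library of its number at 0.187 to 0.593. With another number the value was 0.183 at most, so the numbers were taken to pair libraries. This was read from the same data, and the lowest of the first values is close to the highest of the second. Removing means of 3 libraries also lowers values between numbers where those within a number are above 0. Calls made only with pairing rest on this reading. Alternatives were RLE or no scale factors, no filter, DESeq2 1.42.0, limma 3.58.1 on log2(TPM + 1), fits within a time, leaving out each library, and leaving out replicate 1 at every time, which was added after seeing the data. The edgeR fit without pairing was tested on simulated data, for the effect at 2 dpi only, and the other fits were not. The members and gene lists were chosen with earlier results of these data known. All 10 members are named; from each pathway list up to 3 genes past the threshold at a time, or the 2 with the highest CPM, were named, and other genes are said to have been picked later or passed only with pairing. One gene that the rule for likeness to nfkbiaa also picks is not reported here.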

Additional observations from a re-analysis of the deposited data

Results flagged for a closer look

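Nfkbiaa was flagged because its response to ablation differed between times in a test of the difference itself. With libraries paired by replicate number, the effect at 7 dpi minus that at 2 dpi was -4.12 on the log2 scale (SE 0.473, edgeR adjusted p 0.00585). Without pairing it was -3.87 (SE 1.22) with an adjusted p of 0.337. The nfkbiaa levels behind it were 26.3 to 104 CPM in ablated and 1.21 to 3.50 CPM in unablated libraries at 2 dpi, and 5.64 to 84.5 CPM in ablated and 4.46 to 43.6 CPM in unablated libraries at 7 dpi.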

How the results depend on the processing

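The count of members past the threshold was 1 at 2 dpi, 3 with the replicate block (nfkbiaa, nfkb2, nfkbiab) and 2 with DESeq2 (nfkbiaa, nfkb2), and 0 to 1 when each library was left out. At 4 dpi it was 0, 2 with the replicate block and 1 within that time alone (nfkbiaa, adjusted p 0.0447). For the mean effect it was 2, and 1 with limma on TPM; the nfkbiaa mean kept its call in 25 of 25 alternatives. The difference 7 minus 2 dpi had 0, and 1 with the block. Unablated 7 minus 2 dpi had 0, but 1 with library size alone, 2 with DESeq2, 2 with limma, 1 without replicate 1 throughout, and 0 to 1 on leaving out each library. Beyond these the block changed no call of a member. Directions turned where effects were small or counts low: at 4 dpi nfkbiab with library size alone (0.013) and relb with the block (-0.009) or without replicate 1 (-0.13), and at 7 dpi il1b without replicate 1 (-0.60), tnfb with the block (3.77) and nfkbiab with limma (-0.14) or without replicate 1 (-0.035). Leaving out each library turned relb at 2 dpi (-0.25 to 0.52), il1b (-0.29 to 1.43), nfkb1 (-0.11 to 4.28), rela (-0.36 to 0.16) and relb (-0.25 to 0.19) at 4 dpi, and il1b (-0.36 to 1.34), tnfb (-3.55 to 5.81), nfkbiaa (-1.08 to 1.64) and nfkbiab (-0.40 to 0.51) at 7 dpi. The cause was not tested. Depth limits tnfa, nfkb1 and, in single libraries, tnfb, il1b and nfkbiz.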
